A study of Mus musculus with 14 samples.

Results

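The NK, Dlx, Six-family and related homeobox genes were taken as every protein-coding gene whose symbol belongs to the Six-family or to the Nkx, Dlx, Hmx, Barx, Msx, Emx, Vax, Gsx, Cdx, Evx, Lbx, Tlx or Vsx family. This rule found 52 of 21938 protein-coding genes in 14 families, and it used no measured value. ChIP-seq (chromatin immunoprecipitation with sequencing) located H3K27me3, a histone mark of Polycomb-repressed chromatin, in 9 libraries of whole mouse cerebellum, with 3 libraries at each of postnatal days 7 (P7), 14 (P14) and 60 (P60). All mice of this age series were of the C57BL/6NCrl strain and of both sexes. Each P7 library pooled more mice than each P14 library, and each P60 library came from 1 mouse, so stage and pool size cannot be told apart. The series holds 5 further libraries, from Kdm6b-cKO and Kdm6b-WT mice, which are not analysed here because their peak positions run past the chromosome ends of the genome build used.

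These genes encode homeodomain transcription factors, which bind DNA through a fold of helices and set positional and cell identity in the embryo. Many of them act in the ventral forebrain, the spinal cord, the eye, the ear, the heart or the gut, and few have a known role in cerebellar granule neurons, the most numerous cells of the cerebellum. Promoters of such regulators are typically rich in CpG dinucleotides and are classic targets of Polycomb repressive complex 2, which writes H3K27me3 and keeps the genes silent in lineages that do not use them. The question for this family was how far its promoters lay under the mark at each stage of cerebellar maturation, and which members kept it.

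The measure was promoter coverage, on GRCm38 (mm10). It is the share, in percent, of a window of 3 kb on each side of an annotated transcription start site (TSS) that lay under peaks, taken at the most covered TSS of a gene. A gene was called marked where 1 bp or more was covered. Of the 52 genes, 51 were marked in 2 or more libraries and entered the test with 5120 genes in all. The exception was Nkx6-3, a stomach factor, which was marked in no library. Since the mark was measured in whole tissue, fewer cells carrying it and less of it per cell cannot be told apart, and the lists hold no measure of transcription. Nor can either be told apart from fewer or narrower peaks called in a list, since read depth is unknown. By western blot, the study reported that total H3K27me3 rose from P7 to P14 and stayed raised at P60. Promoter coverage by peaks does not measure that total. From read counts of its ChIP-seq, the study reported local gains as well as losses, with promoters over-represented among the losses. Promoters that gained the mark were enriched for proliferation and development terms. Coverage by peaks is a different measure, and the lists hold no read counts with which to repeat that comparison.

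The peak lists differed in make-up before any gene was considered. Peak number per list was 6905 to 15600, covered length was 1.48 to 15.2 Mb, and the reads behind each list are unknown. The median width of a peak was 485 to 751 bp at P7, but 269 bp in P14 replicate 1, against 454 and 580 bp in the other P14 libraries, and 134 and 149 bp in P60 replicates 1 and 2, against 410 bp in P60 replicate 3. P14 replicate 1 and P60 replicates 1 and 2 thus stood apart by their narrow peaks. Of 10 granule neuron lineage markers, 3 entered the test, and Zic1, Zic2, Gabra6 and Etv1 were marked in no library.

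The promoters of Emx1 and Hmx3 show the extreme of the family rather than its rule. Their RefSeq promoters (250 bases before to 50 after the RefSeq start, GRCm38.p6) lay wholly under peaks in all 6 libraries of P7 and P14, and no base of either was under a peak at P60. Of the 37 RefSeq promoters matched, 5 were wholly covered in all 3 P7 libraries and 3 in all 3 P14 libraries. No peak touched 15 of the 37 in any P7 library. Emx1, a dorsal forebrain factor, is printed from chr6:85187681-85187980 on the plus strand, and Hmx3, an inner ear and hypothalamus factor, from chr7:131542713-131543012 on the plus strand. Hmx2, the neighbour of Hmx3 on chromosome 7, is set beside them from chr7:131548507-131548806 on the plus strand because its promoter was under no peak in any library. Msx3, a dorsal neural tube factor whose promoter at chr7:140049039-140049338 on the minus strand was wholly covered in all 3 P7 libraries, and Six5, at chr7:19094294-19094593 on the plus strand, complete the set. Of the 37 matched promoters, only that of Six5 was touched by a peak at P60. Cdx1, Dlx3 and Lbx2 had P60 peaks near their annotated starts but no matched RefSeq promoter, so Six5 was not alone in the family. These 5 were chosen after their values were seen, and capitals mark CpG dinucleotides.
Emx1: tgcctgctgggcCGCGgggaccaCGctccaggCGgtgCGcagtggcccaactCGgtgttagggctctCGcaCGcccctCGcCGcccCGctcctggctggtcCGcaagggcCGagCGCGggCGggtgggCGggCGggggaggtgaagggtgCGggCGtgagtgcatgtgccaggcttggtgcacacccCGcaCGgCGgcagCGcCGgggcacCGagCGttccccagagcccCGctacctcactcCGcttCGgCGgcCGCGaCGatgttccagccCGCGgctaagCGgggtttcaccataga
Hmx3: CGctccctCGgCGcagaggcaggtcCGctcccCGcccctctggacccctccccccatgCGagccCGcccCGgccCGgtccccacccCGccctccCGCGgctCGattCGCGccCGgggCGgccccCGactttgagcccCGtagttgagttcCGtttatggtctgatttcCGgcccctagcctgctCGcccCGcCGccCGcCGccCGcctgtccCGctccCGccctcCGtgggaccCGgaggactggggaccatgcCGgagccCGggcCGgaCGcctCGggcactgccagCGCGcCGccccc
Hmx2: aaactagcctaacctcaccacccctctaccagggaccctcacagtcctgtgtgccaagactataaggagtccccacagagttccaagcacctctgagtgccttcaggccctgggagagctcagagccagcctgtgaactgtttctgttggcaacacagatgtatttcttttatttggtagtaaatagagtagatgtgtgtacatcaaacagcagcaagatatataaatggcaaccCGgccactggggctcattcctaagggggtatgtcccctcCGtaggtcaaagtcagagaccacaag
Msx3: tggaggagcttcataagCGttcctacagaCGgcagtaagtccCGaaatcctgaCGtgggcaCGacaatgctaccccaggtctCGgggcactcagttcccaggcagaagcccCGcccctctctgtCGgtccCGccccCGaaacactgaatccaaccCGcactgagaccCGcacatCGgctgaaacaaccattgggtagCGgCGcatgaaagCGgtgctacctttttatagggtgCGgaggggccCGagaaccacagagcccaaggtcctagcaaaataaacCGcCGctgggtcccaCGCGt
Six5: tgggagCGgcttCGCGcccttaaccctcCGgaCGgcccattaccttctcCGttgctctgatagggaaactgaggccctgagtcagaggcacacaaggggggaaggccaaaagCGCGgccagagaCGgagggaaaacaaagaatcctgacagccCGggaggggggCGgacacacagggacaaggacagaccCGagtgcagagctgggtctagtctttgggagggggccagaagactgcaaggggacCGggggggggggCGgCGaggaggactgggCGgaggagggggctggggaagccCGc

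The Emx1 stretch holds 37 CpGs, Hmx3 39, Msx3 22, Six5 17 and Hmx2 2. Since the 5 were picked by their coverage, no link between CpG number and coverage can be read from them. Hmx2 was itself marked in its wider TSS window, with a P7 mean of 35.7%. Across the 51 genes tested, CpG density around the 5′ TSS and mean P7 coverage had Pearson's r of -0.035. RefSeq promoters were matched for 37 of the 52 genes, with a median of 19 CpGs in 300 bases, against 7 over 32851 promoters of 27025 genes. The letters CGCG stood in 27 of the 37 promoters (73.0%), against 38.0% of all promoters. The homeodomain core TAATTA was found in 2 of the 37 (5.41%) and the NK2-class word TNAAGTG in 4 (10.8%), against 5.29% and 11.5% of all promoters, each searched on both strands. Neither of these recognition words was more frequent in the family than in promoters at large by more than a fraction of a percentage point.

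Across the family, coverage fell to almost nothing at P60. The genes marked numbered 51, 49 and 45 of 52 in the P7 libraries, 42, 51 and 51 in the P14 libraries, and 4, 10 and 11 in the P60 libraries. Mean coverage over the 52 genes was 39.0, 23.7 and 23.2% at P7, 8.64, 24.3 and 27.7% at P14, and 0.389, 0.559 and 1.77% at P60. Every P60 library therefore lay below every P7 and P14 library, and P14 replicate 1 lay below the other P14 libraries.

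The family also changed its place relative to other genes. Its mean coverage was 1.71, 1.59 and 1.73 times the mean of the 5120 genes tested in the P7 libraries and 1.62, 2.09 and 1.97 times that mean in the P14 libraries. At P60 it was 0.232, 0.386 and 0.313 times the mean of the genes tested. Above-average coverage at P7 and P14 thus stood against below-average coverage at P60 in each of the 9 libraries, including P14 replicate 1, whose list was short.

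**Figure D1:**
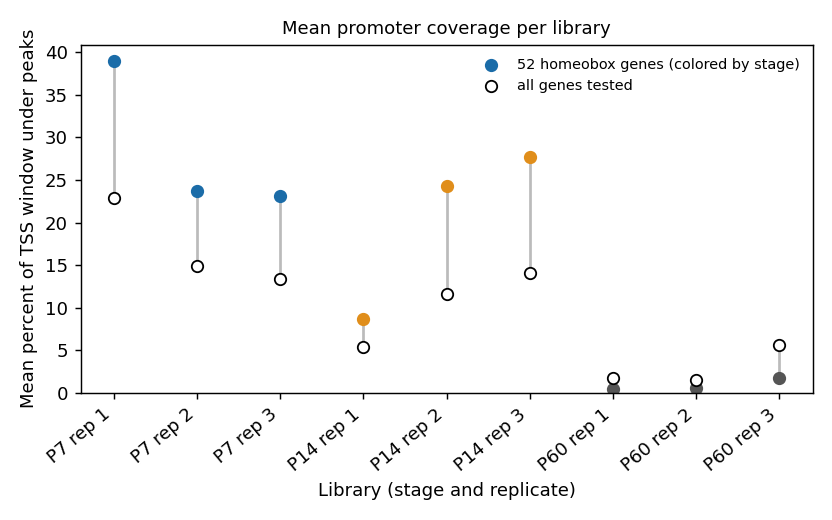
Mean promoter coverage (percent of the TSS window under peaks, vertical axis) in each of the 9 libraries (horizontal axis) for the 52 homeobox genes (filled points, colored by stage) and the 5120 genes tested (open points). The filled points lie above the open ones in the 6 libraries of P7 and P14 and below them in the 3 libraries of P60.

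Between P60 and P7, 35 of the 51 genes tested had lower coverage at P60 and 0 had higher coverage (limma, Benjamini-Hochberg adjusted p under 0.05 over all 5120 genes). The background was 45.8% of all genes tested called lower and 0.605% called higher. At an unadjusted p under 0.05, limma gave 40 genes of the family lower and 0 higher. The share over all genes tested was not counted at that threshold, so these counts cannot be called particular to the family. The median difference was -25.96 percentage points over the family and -11.99 over all genes tested. P60 values lay below every P7 value in 44 of the 51 genes (86.3%), against 52.1% of all genes tested. Genes with as little as 1 bp covered entered these backgrounds. With marked set at 10% of the window, 39 of 51 genes of the family were called lower (76.5%), against 69.2% of the 3497 genes then tested, so the gap was smaller.

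Complete loss of peaks was common in the family. Marked in all 3 P7 and no P60 libraries were 30 genes (58.8% of 51), against 24.7% of all genes tested. Marked in all 3 P14 and no P60 libraries were again 30 genes, against 10.8%. Of the 52 genes, 36 were marked in no P60 library, 10 in 1, 3 in 2 and 3 in all 3.

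These counts depended on weak peaks. A −log10 q of 2 is the false discovery rate of 0.01 that the study's methods name, yet peaks under it made up 37.4 to 43.5% of each P7 and P14 list and 52.7 to 55.7% of each P60 list, and they count in the values given here. With peaks kept at a −log10 q of at least 2, 19 of 51 genes were called lower at P60 than at P7. This was 37.3%, against 45.0% of all genes tested. At a limit of 4 it was 1 of 18 (5.56%, against 26.0%). With every list cut to the same covered length, chosen after seeing the data, it was 1 of 11 (9.09%, against 15.4%). The median difference there was 0.95 points, against 0 over all genes tested. In each of these settings the family's share called lower lay below that of all genes tested. The median difference did not follow this at a −log10 q of at least 2, where it was -20.7 points, against -15.6 over all genes tested. At a limit of 4 it was -12.2 points, against -14.9. With coverage scaled to the library mean, 20 were called lower and 0 higher (39.2%, against 21.3% of all genes tested, of which 1093 were lower and 275 higher), and without the 3 libraries with narrow peaks, also chosen after seeing the data, 12 were lower (23.5%, against 8.08%).

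**Figure D2:**
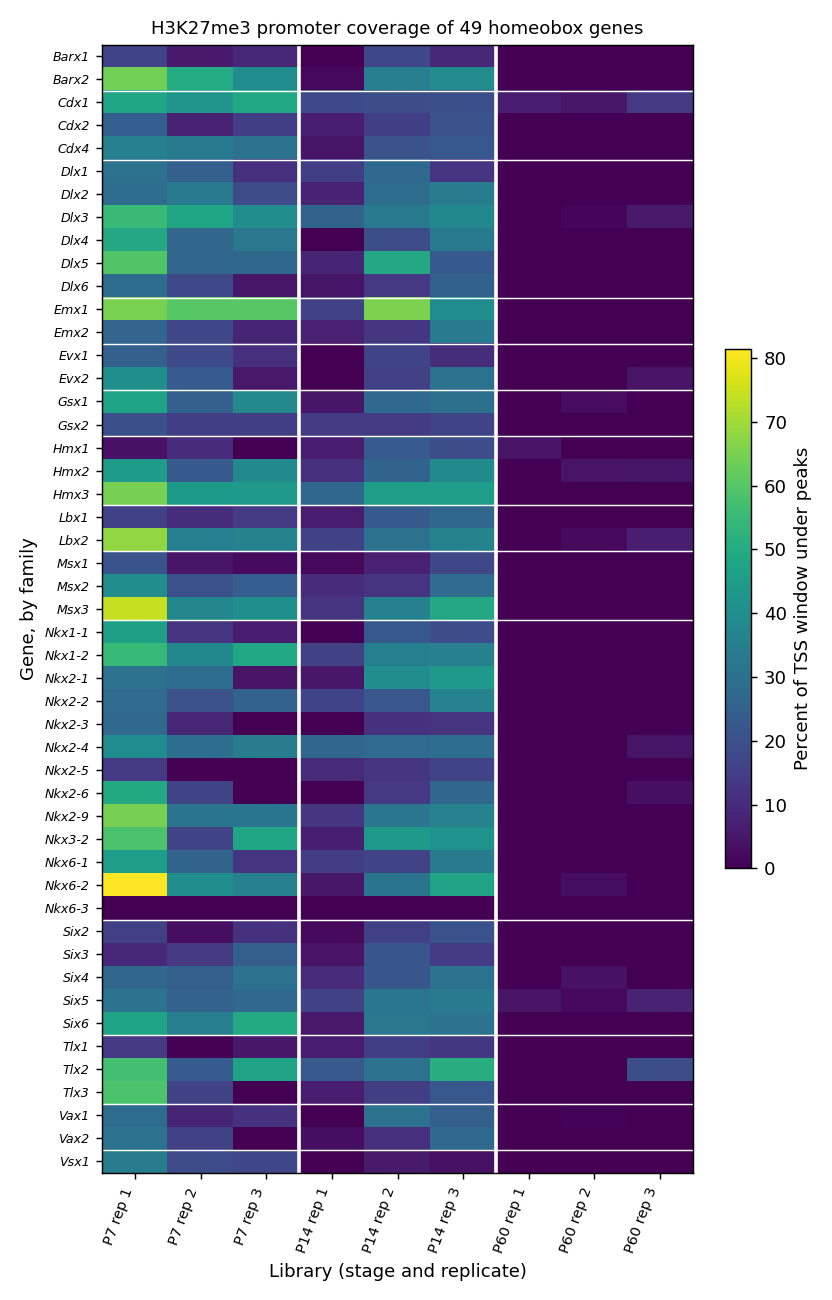
Promoter coverage (percent of the TSS window under peaks, color scale from 0 to the highest value) of 49 of the 52 genes (rows, grouped by family) in each library (columns, by stage and replicate). Most cells of the 3 P60 columns are at 0, and Nkx6-3 is at 0 in every column.

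Emx1, on chromosome 6 from 85187438 to 85204462, had the largest difference between P60 and P7 in the family. Its coverage was 65.2, 60.4 and 60.3% at P7, 15.9, 65.4 and 39.7% at P14, and 0% in all 3 P60 libraries. The difference was -61.96 ± 10.34 points (SE, limma adjusted p = 0.00133). With peaks kept at a −log10 q of at least 2 it was -41.86 points and did not pass (adjusted p = 0.104). The P7 libraries lay close together, the P14 libraries spanned most of the range, and no P60 peak touched the window. Emx2, the other forebrain factor of this family, was less covered, with means of 17.4% at P7, 17.9% at P14 and 0% at P60, and did not pass between P60 and P7 (adjusted p = 0.0546).

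Barx2, a factor of craniofacial and muscle development, had 64.0, 50.1 and 39.5% at P7, 1.90, 34.8 and 39.3% at P14, and 0% in all P60 libraries. Its difference between P60 and P7 was -51.21 ± 9.50 points (SE, limma adjusted p = 0.00196), and at a −log10 q of at least 2 it was -38.03 points and did not pass (adjusted p = 0.0746). P14 replicate 1 was the only library of the younger stages near 0. Barx1, known from stomach and tooth development, averaged 0% at P60 and 10.5% at P7 and did not pass (adjusted p = 0.0877).

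Among the Nkx genes, 8 of the 13 tested had lower coverage at P60 than at P7, and stage means for the 14 members reached 52.2% at P7, 30.8% at P14 and 1.57% at P60. Nkx6-2, a ventral neural tube factor that later serves myelinating glia, had 81.4, 39.8 and 35.5% at P7, 5.20, 31.2 and 47.5% at P14, and 0, 3.15 and 0% at P60. The value of 81.4% was the highest of any gene of the family in any library. Its difference between P60 and P7 was -51.15 ± 12.47 points (SE, limma adjusted p = 0.00693), and the groups did not overlap although the P7 libraries differed by more than 40 points. The call was lost with coverage scaled to the library mean (-22.43 points, adjusted p = 0.072) and, in alternatives chosen after seeing the data, with equal covered length (1.05 points, adjusted p = 0.975) and without the libraries with narrow peaks (adjusted p = 0.135). Nkx1-2, a factor of tail bud progenitors, had 54.4, 38.1 and 48.8% at P7, 15.7, 35.2 and 35.5% at P14, and 0% at P60, a difference of -47.09 ± 6.79 points between P60 and P7 (adjusted p = 0.00085).

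Others called lower at P60 than at P7 were Nkx2-9, Nkx3-2, Nkx2-4, Nkx6-1 and Nkx2-2, with differences between -42.61 points for Nkx2-9, a factor beside the floor plate, and -24.73 points for Nkx2-2, a factor of ventral neural progenitors and oligodendrocytes. Those that did not pass were Nkx1-1, Nkx2-1 of thyroid, lung and ventral forebrain, Nkx2-3 of spleen and gut, and the heart and pharynx factors Nkx2-5 and Nkx2-6. Nkx2-6 had 49.4, 16.6 and 0% at P7, and Nkx2-5 had 13.8% in P7 replicate 1 and 0% in the other two. For both, a P7 library at 0 overlapped with P60. Nkx2-5 averaged 0% at P60 and 4.58% at P7, the lowest P7 mean of the genes tested in the family.

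In the Hmx and Msx families, Hmx3 and Msx3 were the most covered at P7. Hmx3 had 64.6, 44.3 and 43.8% at P7, 27.03, 45.6 and 45.2% at P14, and 0% in all P60 libraries, with a difference between P60 and P7 of -50.87 ± 7.63 points (SE, limma adjusted p = 0.000911). Msx3 had 74.4, 37.5 and 40.7% at P7, 12.6, 35.9 and 49.2% at P14, and 0% at P60, with a difference of -50.85 ± 10.76 points (adjusted p = 0.00358), which did not pass without the libraries with narrow peaks (adjusted p = 0.094). In both genes all P60 values lay below all others. Hmx2 and Msx2 also passed, while Hmx1, with 0, 4.02 and 10.4% as its ordered P7 values, and Msx1, a craniofacial factor with a P60 mean of 0% and a P7 mean of 9.33%, did not.

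All 6 Dlx genes were called lower at P60 than at P7. Dlx1, Dlx2, Dlx5 and Dlx6 specify GABAergic neurons of the forebrain, and Dlx3 acts mainly in placenta, skin and bone. Dlx3 had 54.9, 47.7 and 39.9% at P7, 26.3, 33.0 and 37.9% at P14, and 0, 1.50 and 5.85% at P60, a difference between P60 and P7 of -45.03 ± 6.10 points (SE, limma adjusted p = 0.000765). With coverage scaled to the library mean it was -21.98 points (adjusted p = 0.0582). Its 9 values fell into 3 ranges by stage with no overlap. The others ranged from -37.94 points for Dlx5 to -17.32 points for Dlx6, and Dlx1, Dlx2, Dlx5 and Dlx6 had no peak in their windows in any P60 library.

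Of 6 Six-family genes, 5 had lower coverage at P60 than at P7, and Six2, a nephron progenitor factor, did not pass (adjusted p = 0.124). Six6, an eye and pituitary factor, had 47.2, 34.7 and 49.8% at P7, 5.72, 32.2 and 31.0% at P14, and 0% at P60, a difference between P60 and P7 of -43.91 ± 7.34 points (SE, limma adjusted p = 0.00133). Its window also holds the TSS of 4930447C04Rik, so the peaks cannot be given to one gene. Six4, which acts in muscle, averaged 1.37% at P60 and 27.3% at P7.

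Lbx2, a relative of the muscle and spinal cord factor Lbx1, had 68.3, 35.3 and 36.4% at P7, 16.1, 30.3 and 36.3% at P14, and 0, 1.95 and 6.68% at P60. The difference between P60 and P7 was -43.78 ± 8.89 points (SE, limma adjusted p = 0.00298), and P60 lay below all other libraries. In alternatives chosen after seeing the data, it was 1.48 points with equal covered length (adjusted p = 0.138) and did not pass without the libraries with narrow peaks (adjusted p = 0.123). Lbx1 itself did not pass (adjusted p = 0.0556). Of the Tlx genes, Tlx2 of enteric neurons passed with -35.94 points, while Tlx1 of the spleen and Tlx3 of sensory spinal neurons did not. All 3 Cdx genes, regulators of the posterior axis and the intestine, and both Gsx genes of the subpallium passed, as did Evx1, a spinal interneuron factor. Evx2 and the ventral eye factors Vax1 and Vax2 did not.

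The 16 genes that did not pass were, as a group, less covered at P7. Their P7 means had a median of 14.6%, against 35.7% in the 35 that passed, while the median SD over the P7 libraries was 10.6 points, against 9.0 points in those that passed. None of the 16 averaged over 1.47% at P60. Their differences ran from -24.81 to -3.34 points, all in the same direction as in the genes called.

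**Figure D3:**
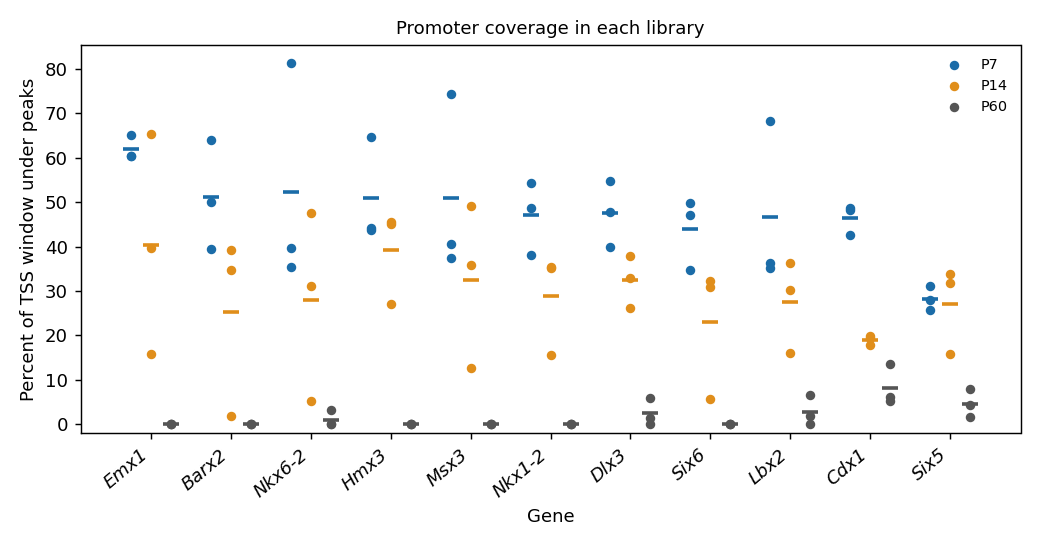
Promoter coverage (percent of the TSS window under peaks, vertical axis) in each library (points) with the stage mean (horizontal marks) for 9 of the 10 genes with the largest differences between P60 and P7 that passed, followed by Cdx1 and Six5. P60 points reach 13.5% for Cdx1, and none of the other genes shown exceeds 8.03% at P60.

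Marked in all 3 P60 libraries were 3 genes (5.88% of 51), against 16.2% of all genes tested. Cdx1 and Six5 were among them.

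Cdx1, an intestinal and posterior axis factor on chromosome 18 from 61018862 to 61036199, had 48.2, 42.6 and 48.7% at P7, 17.9, 19.5 and 19.9% at P14, and 6.08, 5.32 and 13.5% at P60. Its 3 stages did not overlap, and the difference between P60 and P7 was -38.19 ± 5.13 points (SE, limma adjusted p = 0.000732). With coverage scaled to the library mean the difference turned to 3.08 points (adjusted p = 0.793). The call held at a −log10 q of at least 4 (-46.49 points, adjusted p = 0.00444). It also held with equal covered length, chosen after seeing the data (-43.77 points, adjusted p = 0.000176). Cdx1 was the 1 gene of the family called lower in each of those settings. Six5, which lies beside Dmpk and shares its window with the Dmpk TSS, had 31.1, 25.7 and 27.9% at P7, 15.9, 31.9 and 33.7% at P14, and 4.43, 1.60 and 8.03% at P60, a difference between P60 and P7 of -23.54 ± 5.61 points (adjusted p = 0.00631). With coverage scaled to the library mean it was -0.40 points (adjusted p = 0.979), and with equal covered length per list it was 1.81 points (adjusted p = 0.939).

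The P60 peaks that remained were short. At Six5 the 3 P60 libraries had peaks in the window, but no base was common to all 3, and at Cdx1 they shared 25 bp between 425 and 401 bp before the TSS. Over the 52 genes, windows held 86, 80 and 58 peaks at P7, 58, 84 and 82 at P14, and 6, 11 and 14 at P60. The widest peak in a window was 5588 bp in P7 replicate 1 and 1174 bp, at Tlx2, in P60 replicate 3.

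Peak strength was measured by −log10 q, which is set within a library. In the strongest peak of each marked gene, its median was 3.20, 2.53 and 2.22 at P7, 2.01, 3.15 and 3.46 at P14, and 1.51, 1.40 and 1.76 at P60. Within their own lists these peaks had a median rank between the 47.6 and 66.1 percentile at P7, between 40.5 and 72.4 at P14, and between 27.1 and 40.7 at P60. A −log10 q of 4 was reached by the strongest peak of 19, 3 and 3 genes at P7, 1, 17 and 17 at P14, and 0 in each P60 library. The few P60 peaks were thus in the weaker part of lists in which 14.7 to 19.4% of peaks reached 4, and P14 replicate 1 held weaker peaks than the other P14 libraries.

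**Figure D4:**
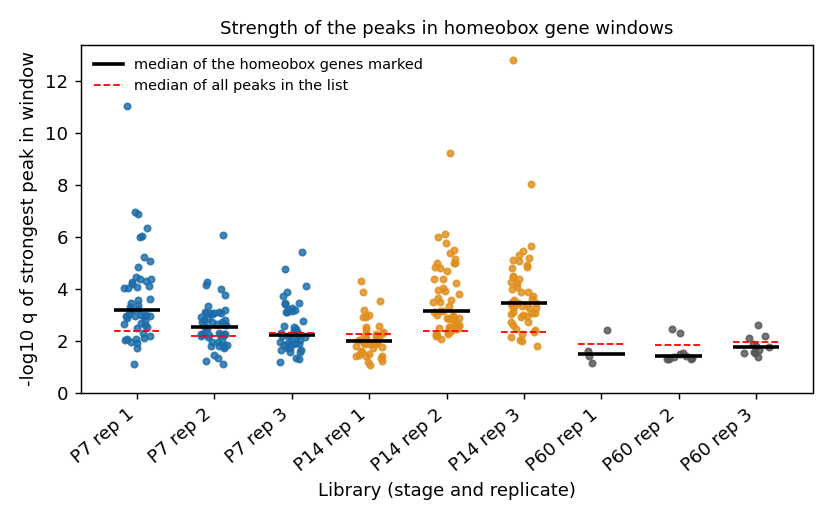
Strongest peak in the TSS window of each marked homeobox gene (points, −log10 q on the vertical axis) in each library (horizontal axis), with the median of those genes (black line) and of all peaks in the list (red dashed line). The black line lies above the red one in P7 replicates 1 and 2 and P14 replicates 2 and 3, and below it in all P60 libraries.

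By median, the larger step lay between P60 and P14. Between P60 and P14 the median difference was -18.36 points over the family and -4.86 over all genes tested, while between P14 and P7 it was -7.74 and -5.73 points. P60 values lay below every P14 value in 42 of the 51 genes, against 25.7% of all genes tested, and P14 values lay below every P7 value in 10, against 27.2%. Both differences use the same P14 libraries.

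Few genes passed the test on either side. At P60 against P14, 4 of 51 were called lower and 0 higher (limma, adjusted p under 0.05), with a background of 2.07% lower and 0% higher. At an unadjusted p under 0.05 limma gave 37 lower and 0 higher. The share over all genes tested was not counted at that threshold, so the 37 cannot be called particular to the family. The 4 were Hmx3 at -39.29 ± 7.63 points (SE, adjusted p = 0.038), Dlx3 at -29.94 ± 6.10 points (0.0395), Nkx2-4 at -26.64 ± 4.84 points (0.038) and Nkx2-2 at -24.78 ± 5.47 points (0.0463). Nkx2-4, a paralogue of Nkx2-1 on chromosome 2 from 147083316 to 147085445, had 39.5, 29.5 and 34.4% at P7, 26.8, 28.6 and 29.2% at P14, and 0, 0 and 4.72% at P60, so its P14 libraries were alike. Nkx2-2, on chromosome 2 from 147177546 to 147194243, had 28.5, 20.2 and 25.5% at P7, 16.4, 22.0 and 36.0% at P14, and 0% at P60.

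This count rested on single libraries. Without P14 replicate 1 it was 31 of 51 (60.8%, against 21.9% of all genes tested). Without P7 replicate 1 it was 10 (19.6%, against 7.58%) and without P60 replicate 3 it was 3 (5.88%, against 3.97%). Leaving out P7 replicate 2 or 3, P14 replicate 2 or 3, or P60 replicate 1 or 2 gave 0. In those fits 0 of all genes tested were called lower, so the count of 0 is not particular to the family. With coverage scaled to the library mean it was 20 (39.2%, against 8.44%).

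At P14 against P7, 3 genes were called lower, among them Cdx1 and Vsx1, and 0 higher (limma, adjusted p under 0.05), with a background of 11.7% lower and 0.352% higher. At an unadjusted p under 0.05, limma gave 10 lower and 1 higher, namely Hmx1. The share over all genes tested was not counted at that threshold, so these counts cannot be called particular to the family. Cdx1 differed by -27.41 ± 5.13 points (SE, adjusted p = 0.00772), and by -7.14 points (adjusted p = 0.793) with coverage scaled to the library mean. Vsx1, a factor of retinal bipolar cells on chromosome 2 from 150680702 to 150689360, had 34.7, 18.5 and 17.2% at P7, 0, 5.95 and 3.67% at P14, and 0% at P60, a difference between P14 and P7 of -20.23 ± 4.93 points (adjusted p = 0.0246). This call was lost with any P14 library left out (adjusted p of 0.0501 to 0.0752), without P60 replicate 1 or 2 (0.0515 and 0.0525), with a 1 kb window (0.0755) and at a −log10 q of at least 2 (0.145). In both genes every P14 library lay below every P7 library, as in 10 of the 51 genes (19.6%), against 27.2% of all genes tested. In 9 genes of the family the mean was higher at P14 than at P7.

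Hmx1, an eye and ear factor, was the clearest of those 9 by the unadjusted test. It had 4.02, 10.4 and 0% at P7, 6.35, 23.3 and 19.5% at P14, and 4.38, 0 and 0% at P60. The difference between P14 and P7 was 11.57 ± 4.93 points, and the P14 and P7 values overlapped (adjusted p = 0.144, and 0.0487 without P14 replicate 1). With coverage scaled to the library mean, 2 genes were lower at P14 than at P7 (3.92%, against 7.03% of all genes tested). Nkx2-5 was the 1 gene called higher, against 0.645% of all genes tested. The median was then 2.60 points over the family and 0 over all genes tested. Without P14 replicate 2, 1 gene was called lower (1.96%, against 3.52%).

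Peaks in the family sat just downstream of the start. In 0.5 kb bins around the 5′ TSS of the 52 genes, mean coverage was highest at P7 between 0.5 and 1 kb downstream, at 56.4%, and at P14 and P60 between 0 and 0.5 kb downstream, at 50.9% and 2.86%. In the other genes tested the highest bin, from 0 to 0.5 kb, held 34.3% at P7, 27.8% at P14 and 7.79% at P60. Over 3 kb, mean coverage downstream and upstream was 35.3 and 19.4% at P7, 27.4 and 10.5% at P14, and 1.16 and 0.538% at P60. Downstream coverage was the higher in all libraries but P60 replicate 2, where it was 0.452% against 0.501% upstream.

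Coverage also reached further from the start than in other genes. More than 7 kb and up to 10 kb from the start, bins of the family were covered to 8.07% at P7, 5.25% at P14 and 0.297% at P60, and bins of the other genes tested to 1.87%, 1.13% and 0.422%. Counting each gene with 10 kb on each side, 52, 52 and 50 genes held a peak at P7, 48, 52 and 52 at P14, and 8, 17 and 18 at P60. The covered length summed to 232, 132 and 121 kb at P7, 45.5, 131 and 155 kb at P14, and 1.66, 2.82 and 11.0 kb at P60. The emptiness of the family at P60 was therefore not limited to the windows.

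**Figure D5:**
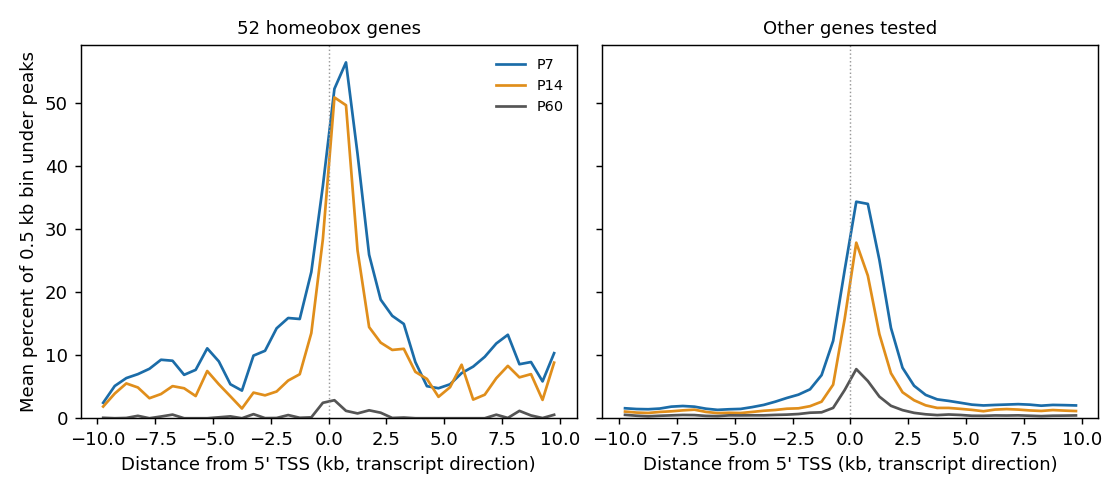
Mean percent of each 0.5 kb bin under peaks (vertical axis) by distance from the 5′ TSS in the direction of transcription (horizontal axis, kb), for the 52 homeobox genes (left) and the other genes tested (right), as the mean of the 3 libraries of each stage. The family curve exceeds that of the other genes at P7 and P14 and is lower near the start at P60.

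Many of these genes stand in pairs. Within 100 kb of each other lay 12 pairs, and in 8 of them both genes were called lower at P60 than at P7, in 3 one was, and in 1, Lbx1 and Tlx1, neither was. No single peak reached into both windows of a pair in any library. Within pairs the coverage was unequal. Dlx5 and Dlx6, whose bodies are 9237 bp apart, averaged 37.9% and 17.3% at P7, 26.9% and 14.4% at P14, and 0% each at P60. Hmx3 and Hmx2, 3848 bp apart with overlapping windows, averaged 50.9% and 35.7% at P7, 39.3% and 25.4% at P14, and 0% and 2.94% at P60.

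CpG density was high in most of the family. In the window around the 5′ TSS it had a median of 37.3 CpGs per kb over the 51 genes tested, against 22.5 over all genes tested, and 45 of the 51 lay above that value. It was 32.2 per kb in the genes called lower at P60 than at P7 and 43.9 in those not called. Across the 51 genes, as a description over genes of the same libraries, CpG density and mean P7 coverage had Pearson's r of -0.035 and Spearman's rho of -0.067.

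Other families of developmental regulators were counted in the same way. Of 39 Hox genes tested, 27 (69.2%) had lower coverage at P60 than at P7, as had 20 of 29 forkhead genes (69.0%) and all 10 LIM homeobox genes tested, against 68.6% here. Their median differences were -22.55, -26.64 and -28.32 points, against -25.96 here. Marked in all 3 P7 and no P60 libraries were 26 of the 39 Hox genes, 13 of the 29 forkhead genes and 3 of the 10 LIM homeobox genes, against 30 of 51 here. These differences between families were not tested.

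Genes that work with these factors were counted from 7 lists. Of the 5 genes tested in the network of Six-family, Eya and Dach factors, 4 were lower at P60 than at P7 and 0 higher, with a median of -24.11 points, led by Sall1, a zinc finger factor of kidney and limb, at -50.39 points (limma adjusted p = 0.00263) and followed by Eya2, a cofactor of Six-family proteins, at -37.64 points and Pax2 at -24.11 points. Of 9 targets and partners of the Dlx factors, 6 were lower, with a median of -27.87 points, led by Sp8 at -36.35 points (adjusted p = 0.00076), Lhx8 at -34.87 points (adjusted p = 0.0188) and Lhx6, a factor of cortical interneurons, at -29.77 points (adjusted p = 0.0187). Gad1 and Gad2, the GABA-synthesizing enzymes, were also lower, at -20.19 and -29.72 points. Of 16 patterning signals and partners tested, 10 were lower, with a median of -26.25 points. Wnt1, a midbrain-hindbrain signal, led at -55.26 points (adjusted p = 0.00195), followed by the bone morphogenetic proteins Bmp2 at -49.04 points and Bmp4 at -45.41 points. The background of 45.8% called lower holds for each list, and none had a gene called higher.

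Lists for the writers of the mark and for other cell types completed the count. Of 11 Polycomb and H3K27 enzymes, Ezh1, Ezh2, Eed, Suz12 and Kdm6a were marked in no library, and 5 of the 6 tested were lower at P60 than at P7, led by Bmi1, a subunit of Polycomb repressive complex 1, at -43.28 points (limma adjusted p = 0.00297), then Cbx7 at -34.02 points and Cbx8 at -23.45 points. Of the oligodendrocyte lineage markers 3 of 4 tested were lower, led by Pdgfra at -45.13 points, Olig1 at -29.48 points and Sox10 at -28.17 points, and of the inhibitory neuron markers 3 of 6, namely Gad2, Pax2 and Gad1. Of the 3 granule neuron lineage markers tested, Cbln1 was lower, at -21.88 points (adjusted p = 0.0184), while Atoh1 at -12.92 points and Barhl1 at -5.51 points did not pass. The difference for Atoh1 between P14 and P7 was 9.72 points and did not pass (limma adjusted p = 0.297). The study names Atoh1 among promoters that gained the mark, shown in cultured granule neurons rather than in this tissue. Averaged over a list, coverage of oligodendrocyte markers ranged between 18.4 and 25.9% in the P7 libraries, 9.78 and 22.1% in the P14 libraries and 0.472 and 6.36% in the P60 libraries, and that of inhibitory neuron markers between 6.20 and 17.1%, 2.42 and 11.8%, and 0 and 0.717%. The part of cell type make-up in the change of the homeobox genes was not tested.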

How the data were processed

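H3K27me3 ChIP-seq peak lists of whole cerebellum were analysed for 9 libraries, 3 each at P7, P14 and P60. The submitters' notes name FastQC, Trimmomatic 0.38 for trimming, STAR 2.7.2b for alignment on mm10 and MACS2 2.1 for peak calling in each sample. The study's methods name broad peaks at a false discovery rate of 0.01 and no input, but the deposited lists also hold peaks weaker than this, with −log10 q under 2, which were kept. The deposited lists give each peak's fold enrichment (a ratio made by the authors), its −log10 p and −log10 q as the authors' caller wrote them, and a score that the authors' caller set to 10 times −log10 q. Only positions and −log10 q were used. Depth is unknown, since the sources used here hold no read numbers, and intervals from counting were not possible.

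Promoter coverage was computed over GENCODE vM21 TSS windows of 3 kb each side for 21938 genes, taking each gene's most covered window in each library. Genes marked in 2 or more of 9 libraries were tested with limma 3.58.1 (trend and robust variance, all 9 libraries in 1 fit, no covariate) in R 4.3.3, with Benjamini-Hochberg adjustment over all 5120 genes. SE is limma's moderated error. The limma step was tested on simulated data. Libraries of a stage are biological replicates per the series record, and p-values measure the spread between these samples. Python 3.11.15, numpy 2.4.6, matplotlib 3.10.9 and pysam 0.24.0 were used. Sequences are from RefSeq tables and the GRCm38.p6 genome.

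The genes and lists were chosen with earlier results of these data known. Values per library are given for the 10 genes with the largest falls between P7 and P60 past the threshold, for those marked in every P60 library, and for up to 5 past the threshold per direction at the other steps. Others are given by family, and 3 genes are not reported here. Alternatives covered peak strength, number and width, the window, the TSS, the filter, scaling, the variance, a replicate block and each library left out. The comparison of Kdm6b-cKO with Kdm6b-WT was not run: between 25 and 74 peaks of each of those 5 lists end past a GRCm38 chromosome, against 0 in the age series, and no annotation of their build was used here.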

Additional observations from a re-analysis of the deposited data

How the results depend on the processing

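Under every alternative that could be fitted, 0 homeobox genes were called higher at P60 than at P7 or than at P14. The count called lower at P60 than at P7 (35) was 19 with −log10 q of 2 or more, 1 with 4 or more (18 genes tested), 20 with scaling to the library mean, and, in alternatives chosen after seeing the data, 1 with equal covered length per list (11 tested) and 12 without the 3 libraries with narrow peaks. The shares over all genes tested in these settings are given above. Leaving out each library gave 30 to 42 (58.8 to 82.4%), against 31.4 to 54.8% of all genes tested. Marked in all P7 and no P60 libraries were 30 genes of the family, against 1265 over all genes. These counts were 22 against 1318 at −log10 q of 2 or more, and 1 against 435 at 4 or more. They were 20 against 885 with equal peak number, and 0 against 100 with equal covered length. With a library left out they were 30 to 34, against 1277 to 1759. The count lower at P14 than at P7 (3) was 1 at −log10 q of 4 or more (5.56%, against 5.62% of all genes tested). It was 1 with equal covered length (9.09%, against 6.22%). With a library left out it was 1 to 3 (1.96 to 5.88%, against 3.52 to 19.6%). Without the libraries with narrow peaks the median difference was -1.84 points, against -4.01 over all genes tested. The count higher at P14 was 1 with scaling (against 0.645% of all genes tested) and 0 to 1 with a library left out (against 0.0989 to 1.58%).

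The count lower at P60 than at P14 was 4. Without the libraries with narrow peaks, chosen after seeing the data, only P60 replicate 3 is left, and the median difference was -23.12 points. The count was 0 with a −log10 q limit of 4 and with a 5 kb window, and it was 0 over all genes tested too. It was also 0 with genes marked in 1 or more libraries, chosen after seeing the data, against 0.179% of all genes tested. It was 1 with equal covered length (9.09%, against 5.67% of all genes tested) and 2 with equal peak number (4%, against 1.13%). It was 7 without trend and robust variance (13.7%, against 6.84%) and 8 with peaks of 300 bp or wider (15.7%, against 6.44%). With the 5′ TSS only it was 8 (16.3%, against 4.65%), and with marked set at 10% of the window 12 (23.5%, against 12.3%). With a 1 kb window it was 14 (28%, against 11.8%) and with scaling 20 (39.2%, against 8.44%). With a library left out it was 0 to 31 (0 to 60.8%, against 0 to 21.9%). For the 12 genes chosen by the rule between P60 and P7, 243 values kept their direction and call under the alternatives, 16 no longer passed and 4 turned. A further 13 values, from 9 of the 12 genes, are missing because the gene did not enter the test under that alternative. Signs turned for Cdx1 with scaling (3.08 points) and with equal covered length for Lbx2 (1.48), Nkx6-2 (1.05) and Six5 (1.81), all between P60 and P7; the cause was not tested. Replicate numbers did not pair the samples, since the deviations of same-numbered libraries correlated between -0.216 and 0.249, with 2 of 9 over 0.1. With the replicate block, 33 genes were lower at P60 than at P7 (64.7%, against 39.9% of all genes tested). The count was 2 at P14 than at P7 (3.92%, against 4.55%) and 0 at P60 than at P14 (0%, against 0%). Testing every gene with no filter could not be fitted, and the Kdm6b comparison was not run.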
